A study of Mus musculus with 6 samples.

Results

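This account concerns 10 genes that carry folate, vitamin C, inositol, thiamine and biotin across membranes: Folr1, Folr2, Slc19a1, Slc46a1, Slc23a1, Slc23a2, Slc5a3, Slc19a2, Slc19a3 and Slc5a6. They were chosen by gene symbol, taking every probe set whose only symbol in the platform annotation was one of the 10, which gave 20 of 45037 probe sets and 10 of 18193 named genes. Epithelium of the choroid plexus, which lines the plexus in each brain ventricle and secretes cerebrospinal fluid, had been prepared from whole brains of B10.PL mice lacking RAG (3 arrays described as B10.PL RAG or RAG -/-) and of B10.PL WT mice (3 arrays), with total RNA on 1 single-colour oligonucleotide array for each preparation. The labels name neither the disrupted RAG gene nor the age or sex of the mice, and they do not say whether a preparation came from 1 animal or from a pool, so the p-values measure only the spread between these preparations, part of which may be technical. The titles share 3 codes, each between 1 array of either genotype, and the arrays therefore form pairs 1, 2 and 3, numbered like the replicates. In pair 1 the descriptions state that the samples had been reversed, and they give each array the genotype opposite to that in its title. Genotypes below are those of the descriptions unless the title is named.

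The choroid plexus is the main route by which folate enters the cerebrospinal fluid. FOLR1, a folate receptor anchored to the membrane, takes 5-methyltetrahydrofolate up on the blood side and passes it through the cell, SLC46A1 is a proton-coupled folate transporter, and SLC19A1 is the reduced folate carrier. Vitamin C is brought in with sodium by SLC23A2, and myo-inositol, an osmolyte and a precursor of signalling lipids, by SLC5A3. SLC19A2 and SLC19A3 carry thiamine, and SLC5A6 carries biotin and pantothenate.

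The deposited medians ran between 77.8 and 97.1 intensity units over the 6 arrays, and epithelial markers were bright in all of them, with the means of 14 measured markers of 16 (Folr1 not among them) at 12.46 to 13.56 in RAG-/- arrays and 13.33 to 13.48 in WT arrays on the log2(intensity + 16) scale used throughout. Some markers of neural cells were bright too. Mbp of oligodendrocytes, Aldoc and Gja1 of astrocytes and Snap25 of neurons were at the 99.9, 99.0, 98.5 and 98.2 percentiles of all probe sets. Others were dimmer, down to the 40.1 percentile for Slc17a7 of neurons. Astrocyte means ran from 10.62 to 12.35 in RAG-/- arrays and 10.77 to 11.75 in WT arrays, below the epithelial mean in each array. Which cells gave the carriers' signal was not tested. RAG-/- replicate 2 stood apart. It had the lowest epithelial mean (12.46) and the highest neuronal mean, 11.72 against at most 10.51 in the other 5 arrays. Rag1 and Rag2, dim at the 27.1 and 26.2 percentiles of all probe sets, did not check the labels. Rag1 was at 4.60, 6.92 and 6.31 in RAG-/- arrays and 6.54, 4.16 and 4.35 in WT arrays. By title, Rag1 was higher in every array titled RAG than in any other array (exact permutation p = 0.1, two-sided, the smallest possible). Among the 27022 brighter probe sets tested below, 574 were higher in this way by title. By description the Rag1 groups overlapped (exact permutation p = 0.3). Rag2 differed by -0.68 by title and by 0.05 by description, with overlapping groups in both readings. The Y-linked gene Kdm5d was at 9.26 and 9.90 in RAG-/- replicates 1 and 3 and at 4.07 in RAG-/- replicate 2, against 4.26, 5.51 and 5.21 in WT arrays. The Y-linked genes Eif2s3y and Uty were also highest in RAG-/- replicates 1 and 3. Xist ran the other way, at 9.04, 12.20 and 7.43 in RAG-/- arrays and 12.88, 12.95 and 13.19 in WT arrays. The difference was -3.45 for Xist and 2.75 for Kdm5d by description, and -0.89 and -0.58 by title. Sex, which the labels do not name, may thus be spread unevenly over the genotypes of the descriptions. Its part in the values below was not tested.

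The data show bright signal from several of these carriers in both genotypes and no carrier that differed between them past the threshold. Folr1, Slc5a3, Slc23a2 and Slc19a1 had their brightest probe sets at the 99.2, 99.1, 97.0 and 95.1 percentiles of all probe sets, Slc5a6, Slc19a2 and Slc46a1 at the 89.1, 87.1 and 79.5 percentiles, and Folr2, Slc19a3 and Slc23a1 at the 64.8, 55.3 and 35.4 percentiles. These percentiles describe probe sets within an array and do not order the transcripts by amount, since probe sets differ in how brightly they bind. Of the 20 probe sets, 15 from 9 genes passed the filter on dim values, and 0 of the 15 passed an adjusted p of 0.05 with limma by description, where 0% of 27022 probe sets did. At an unadjusted p under 0.05 the count was also 0 of 15, against 0.711% of all probe sets tested.

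**Figure D1:**
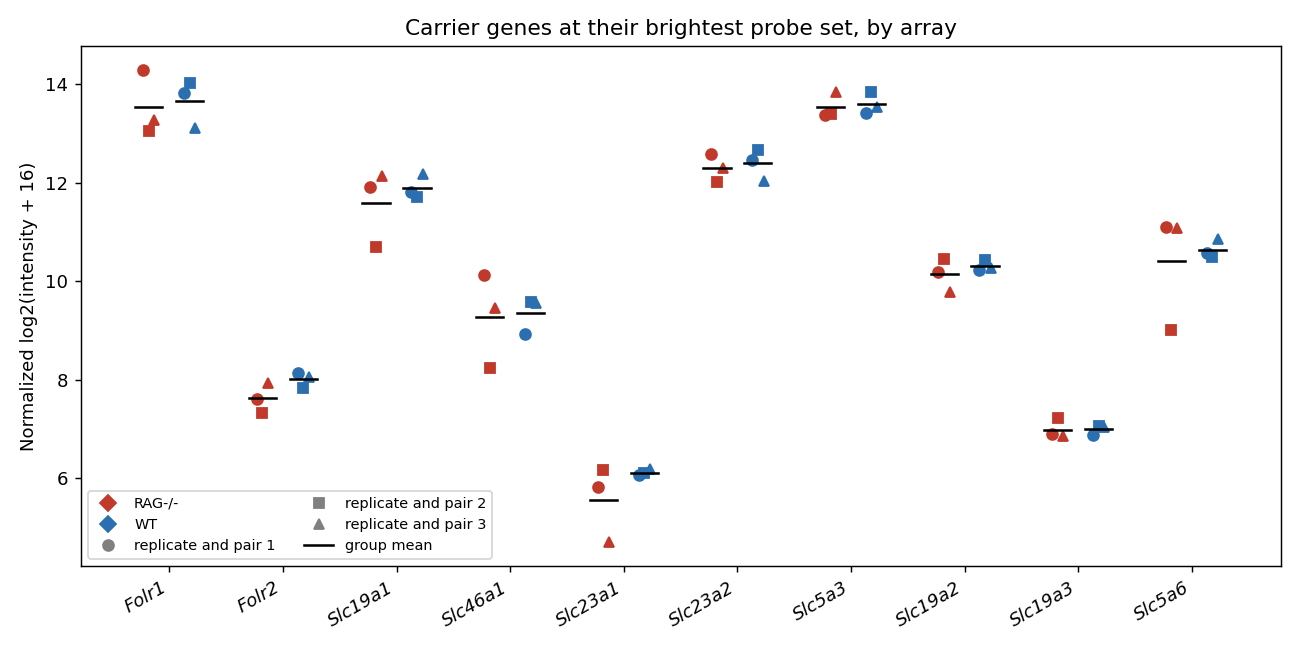
Normalized log2(intensity + 16) of the 10 carrier genes at their brightest probe set, with RAG-/- arrays (red) left of WT arrays (blue), marker shapes for replicate and pair, and bars for group means. The groups overlap for every gene, and RAG-/- replicate 2 lies well below the other arrays for Slc19a1 (10.70), Slc46a1 (8.25) and Slc5a6 (9.01).

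Folr1, the folate receptor of this epithelium, was among the brightest transcripts of every array, between the 98.3 and 99.8 percentiles. Its values (probe set 1450995_at) were 14.30, 13.05 and 13.27 in RAG-/- replicates 1, 2 and 3, against 13.83, 14.03 and 13.12 in WT replicates 1, 2 and 3. The highest and the lowest array were both RAG-/-, and both arrays of pair 3 were low, so the groups overlapped completely. The group means were 13.54 ± 0.66 in RAG-/- and 13.66 ± 0.48 in WT (SD, n = 3 each), a difference of -0.12 (SE 0.36, 95% interval -0.95 to 0.71, limma adjusted p = 1). Within pairs 1, 2 and 3 the difference was 0.47, -0.98 and 0.15, and without RAG-/- replicate 2 the overall difference was 0.11. In bulk preparations such as these, fewer epithelial cells and less Folr1 RNA in each cell cannot be told apart.

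Folr2, the neighbouring gene in the GRCm38.p6 table and a folate receptor known from tissue macrophages, was of middling brightness. Its values were 7.62, 7.32 and 7.94 in RAG-/- arrays, against 8.13, 7.84 and 8.06 in WT arrays. All 3 pairs had the lower value in the RAG-/- array, by -0.51, -0.52 and -0.12, the same direction in each, while RAG-/- replicate 3 lay above WT replicate 2. The means were 7.63 ± 0.31 in RAG-/- and 8.01 ± 0.15 in WT (SD, n = 3 each), a difference of -0.38 (SE 0.30, 95% interval -1.08 to 0.31, limma adjusted p = 1). Among the 15 tested probe sets this was the lowest unadjusted p, 0.237. By title the difference was -0.05.

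Folr2 was the carrier for which normalization decided whether the groups overlapped. As deposited, its intensities were 174.5, 156.1 and 209.03 in RAG-/- arrays, against 276.3, 221.3 and 235.8 in WT arrays, so that every RAG-/- value lay below every WT value (exact permutation p = 0.1, the smallest possible). Of all probe sets tested, 1.88% were apart in that direction as deposited, and 1 of the 15 carrier probe sets was. After quantile normalization 0 of the 15 were apart, against 3.44% of all probe sets in either direction. The 15 border macrophage markers, all of them measured, had means of 8.84, 7.19 and 7.88 in RAG-/- arrays and 9.29, 7.38 and 7.94 in WT arrays. Their mean was lower in the RAG-/- array of every pair, while single markers went both ways, 9 lower and 6 higher on average. All 15 passed the filter on dim values, and their part in the Folr2 values was not tested.

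Slc19a1, the reduced folate carrier, exchanges folates for organic anions. Its brightest probe set (1420138_at) was at 11.91, 10.70 and 12.14 in RAG-/- arrays, against 11.82, 11.71 and 12.17 in WT arrays. Except for RAG-/- replicate 2, the arrays lay within a narrow band. The means were 11.58 ± 0.77 in RAG-/- and 11.90 ± 0.24 in WT (SD, n = 3 each), a difference of -0.32 (SE 0.39, 95% interval -1.20 to 0.57, limma adjusted p = 1) that was 0.13 without RAG-/- replicate 2. The other tested probe set (1448132_at) was at 11.10, 9.96 and 10.50 in RAG-/- arrays and 10.58, 11.01 and 10.63 in WT arrays, with the same array lowest.

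Slc46a1, the proton-coupled transporter that works beside FOLR1, varied more than the other folate genes. Its brighter probe set (1426715_s_at) was at 10.12, 8.25 and 9.45 in RAG-/- arrays, against 8.93, 9.58 and 9.57 in WT arrays. The RAG-/- arrays held both the highest and the lowest value, a 3.67-fold range. The means were 9.27 ± 0.95 in RAG-/- and 9.36 ± 0.37 in WT (SD, n = 3 each), a difference of -0.08 (SE 0.49, 95% interval -1.20 to 1.03, limma adjusted p = 1). Within pairs 1, 2 and 3 it was 1.19, -1.33 and -0.12, so pairs 1 and 2 differed by similar amounts in opposite directions. Without RAG-/- replicate 2 the difference was 0.43.

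The vitamin C transporters were far apart in brightness. Slc23a2, the sodium-dependent transporter SVCT2, was at 12.58, 12.02 and 12.31 in RAG-/- arrays and 12.47, 12.67 and 12.04 in WT arrays at its brighter probe set (1417329_at). The 6 values stayed within 0.65 of each other, the groups overlapped, and the difference was -0.09 (SE 0.25, 95% interval -0.67 to 0.49, limma adjusted p = 1). Slc23a1, the SVCT1 transporter known from intestine and kidney, had both of its probe sets under the filter and was not tested. Its brighter one was at 5.83, 6.16 and 4.70 in RAG-/- arrays and 6.07, 6.10 and 6.18 in WT arrays (exact permutation p = 0.3). RAG-/- replicate 3 was the low array, and the other 5 lay close together.

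Slc5a3, the sodium/myo-inositol cotransporter induced by hypertonic stress, had a bright and steady signal at 1 of its probe sets after quantile normalization. The SD over the 6 arrays was 0.22 at 1435484_at and 0.80 at the dimmer 1422170_at. Its brightest probe set (1435484_at) was at 13.38, 13.39 and 13.85 in RAG-/- arrays, against 13.41, 13.84 and 13.53 in WT arrays. The highest array was RAG-/- replicate 3 and the groups overlapped throughout. With means of 13.54 ± 0.27 in RAG-/- and 13.59 ± 0.22 in WT (SD, n = 3 each), the difference of -0.05 had the narrowest interval of all 15 probe sets, -0.52 to 0.42 (SE 0.20, limma adjusted p = 1). As deposited the intensities were 10898, 9507 and 16544 in RAG-/- arrays and 10280.0, 13978 and 13155 in WT arrays, which overlapped as well.

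Slc19a2 (1417902_at), the high-affinity thiamine transporter, was at 10.19, 10.45 and 9.78 in RAG-/- arrays and 10.23, 10.44 and 10.28 in WT arrays, with RAG-/- replicate 2 the highest array and RAG-/- replicate 3 the lowest. Its difference was -0.17 (SE 0.29, 95% interval -0.83 to 0.48, limma adjusted p = 1). The other tested probe set of Slc19a2 (1441315_s_at), nearly as bright, was at 9.81, 9.44 and 9.76 in RAG-/- arrays and 9.62, 9.61 and 10.19 in WT arrays. There RAG-/- replicate 2 was the lowest array, and the difference was -0.14 (SE 0.30, 95% interval -0.83 to 0.55, limma adjusted p = 1). Slc19a3, the second thiamine transporter, was at 6.90, 7.22 and 6.85 in RAG-/- arrays and 6.88, 7.06 and 7.04 in WT arrays (1436417_at), the smallest spread of the 15 probe sets (SD of 0.14 over the 6 arrays). RAG-/- replicate 2 was the highest array, and both group means were 6.99.

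Slc5a6, the sodium-dependent multivitamin transporter, depended most on a single array. Its values were 11.11, 9.01 and 11.09 in RAG-/- arrays, against 10.57, 10.50 and 10.86 in WT arrays. RAG-/- replicates 1 and 3 lay above every WT array and RAG-/- replicate 2 lay below every one. The means were 10.40 ± 1.21 in RAG-/- and 10.64 ± 0.19 in WT (SD, n = 3 each), a difference of -0.24 (SE 0.55, 95% interval -1.50 to 1.01, limma adjusted p = 1). Without RAG-/- replicate 2 it was 0.46, with an adjusted p of 1.

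**Figure D2:**
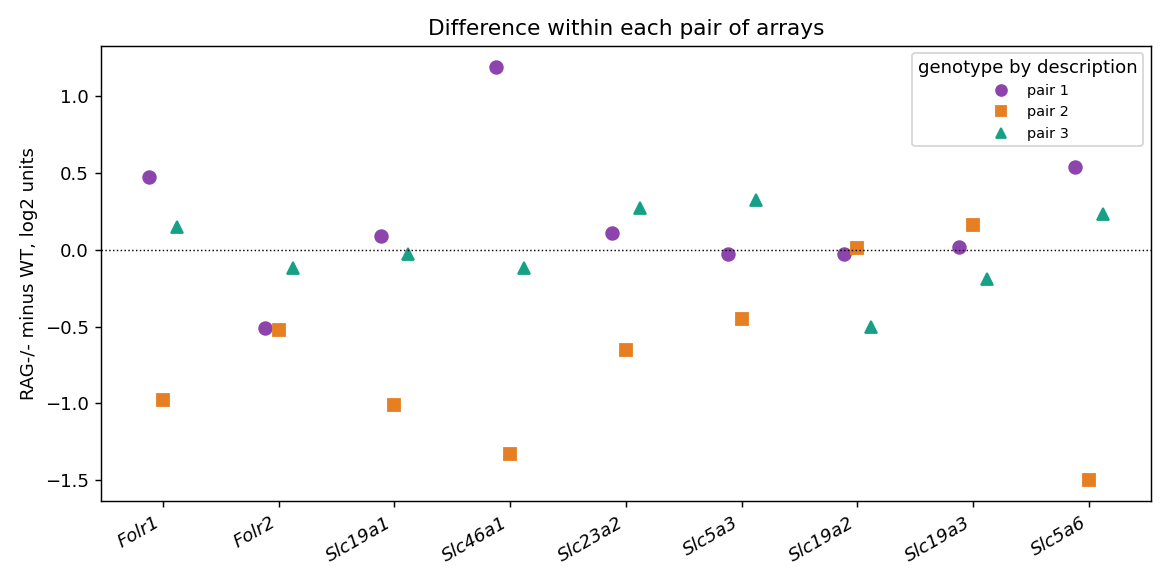
Difference in normalized log2 value, RAG-/- minus WT by description, within pair 1 (circles), pair 2 (squares) and pair 3 (triangles), for the 9 carriers that passed the filter. Pair 2 lies below 0 for 7 of the 9 genes, down to -1.50 for Slc5a6, while pairs 1 and 3 lie between -0.51 and 0.54 except Slc46a1 in pair 1 at 1.19.

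Over the tested probe sets the median difference by description was widest in pair 2, though pair 3 differed most for Slc23a1 (-1.48), Slc19a2 (-0.50) and Slc19a3 (-0.19) at their brightest probe sets. Of the 15 tested probe sets 14 were lower in RAG-/- than in WT on average, with a median of -0.14, against 51.9% of all probe sets tested and a median of -0.01. Within pair 2, 13 of 15 were lower (54.4% of all probe sets), within pair 1 5 of 15 (47.4%) and within pair 3 8 of 15 (50.9%). The medians over the 15 were 0.10, -0.74 and -0.03 in pairs 1, 2 and 3. RAG-/- replicate 2 was the lowest array in 11 of the 15, where it was the lowest in 29.0% of all probe sets tested, and these 15 share arrays and, in part, genes. It was the highest array in 2 of the 15, 1417902_at of Slc19a2 and 1436417_at of Slc19a3. Some marker lists of whole cell types leaned one way by description too. Others went both ways, with 3 lower and 6 higher for astrocytes and 2 lower and 5 higher for ependyma. Neuronal markers were 2 lower and 10 higher, and macrophage markers 9 lower and 6 higher. Epithelial markers were lower in 14 of 14 (median -0.26), but their list mean was lower in the RAG-/- array of pair 2 only. These means were 13.56, 12.46 and 13.45 in RAG-/- arrays and 13.33, 13.48 and 13.41 in WT arrays. Oligodendrocyte markers were higher in 11 of 11 (median 1.08). Their list means were 10.08, 11.70 and 11.65 in RAG-/- arrays and 10.55, 10.27 and 9.78 in WT arrays, lower in RAG-/- in pair 1. Endothelial markers were lower in 10 of 10 (median -0.46) and markers of pericytes and smooth muscle in 8 of 9 (median -0.60). Both list means were lower in the RAG-/- array of every pair. All 13 meningeal fibroblast markers were lower, with list means of 10.83, 9.30 and 10.48 in RAG-/- arrays and 11.92, 10.78 and 10.91 in WT arrays, lower in the RAG-/- array of every pair. In each of these lists 0 markers passed the adjusted threshold. By title the medians were -0.39 for epithelium, -0.12 for endothelium, 0.22 for pericytes and smooth muscle, 1.24 for oligodendrocytes and -0.39 for meningeal fibroblasts. The part of these lists, and of the low epithelial and high neuronal means of RAG-/- replicate 2, in the carriers' values was not tested.

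**Figure D3:**
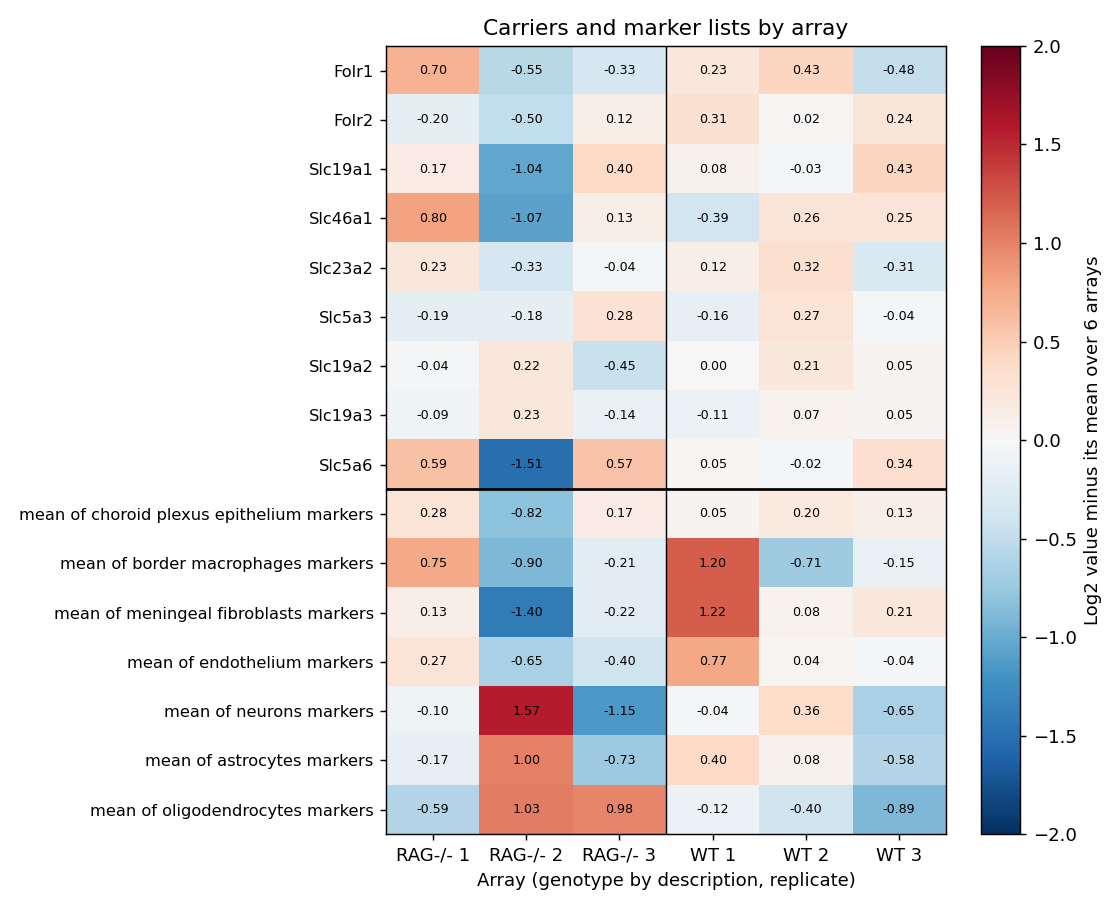
Log2 value minus its mean over the 6 arrays for 9 carriers (upper rows) and for the means of 7 marker lists (lower rows), RAG-/- arrays left of WT arrays, with the value in each cell. RAG-/- replicate 2 is low for Slc19a1, Slc46a1, Slc5a6 and the epithelial markers and high for the neuronal and astrocyte markers, while macrophage and fibroblast means are highest in WT replicate 1.

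The spread of the carriers was like that of the arrays in general. The SD over 6 arrays ran between 0.14 and 0.80 for the 15 probe sets, with a median of 0.41 against 0.42 over all probe sets tested. A median of 56.2% of each probe set's squared deviations from its mean lay between the 3 pairs, against 63.1% over all probe sets. With 3 pairs in 6 arrays, a sizeable share falls between pairs even where arrays of a pair are not alike. The share was lowest for Slc19a1 at 1448132_at (17.1%) and highest for Slc5a3 at 1422170_at (88.4%).

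With genotype read from the titles, all 15 probe sets were lower in the arrays titled RAG, with a median of -0.26 against -0.03 over all probe sets tested, and again 0 of 15 passed the adjusted threshold (0% of 27022). Pair 1 turns in this reading and pair 2 does not, so RAG-/- replicate 2 stays in the RAG group. The widest gap was that of Slc46a1 at 1426715_s_at, whose arrays titled RAG were at 8.93, 8.25 and 9.45 and whose arrays titled B10 were at 10.12, 9.58 and 9.57. These groups did not overlap, and the difference was -0.88 (SE 0.37, 95% interval -1.74 to -0.02, unadjusted p = 0.0462, limma adjusted p = 1). That made 1 of 15 at an unadjusted p under 0.05, against 1.23% of all probe sets. The groups did not overlap at 1448132_at of Slc19a1 either, with a difference of -0.56. It was at 10.58, 9.96 and 10.50 in arrays titled RAG and 11.10, 11.01 and 10.63 in arrays titled B10. Probe sets lower in this way made up 2 of 15 carriers' probe sets and 2.66% of all tested. The groups by title overlapped at the brightest Slc19a1 probe set, 1420138_at (-0.38), and at the dimmer Slc46a1 probe set, 1426714_at (-0.73). Folr1 was lower by title as well, at -0.43 (SE 0.33, 95% interval -1.19 to 0.33, limma adjusted p = 1), with overlapping groups.

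**Figure D4:**
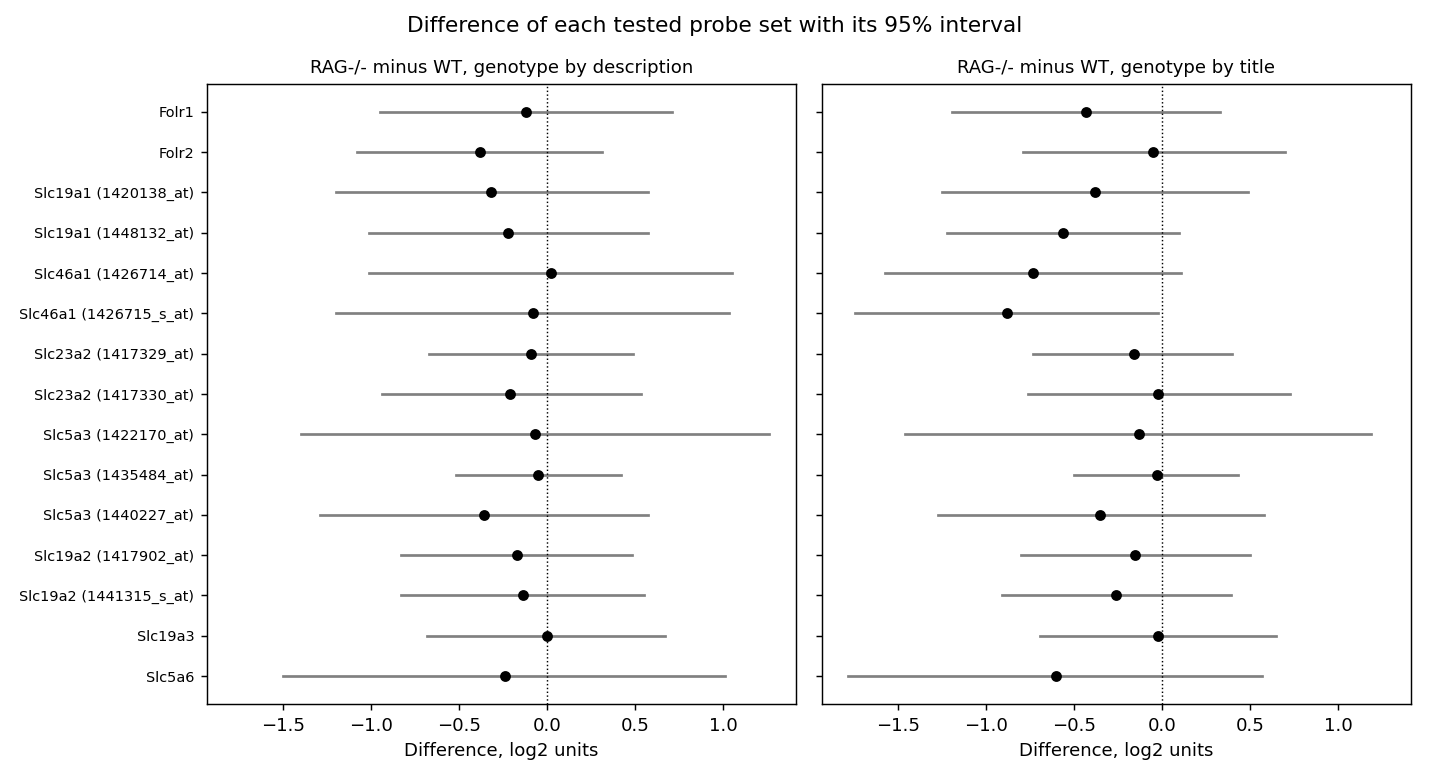
Difference in normalized log2 value, RAG-/- minus WT, for each of the 15 tested probe sets, with its 95% interval from limma, by description (left) and by title (right). By description every interval includes 0; by title only that of Slc46a1 at 1426715_s_at, -1.74 to -0.02, does not.

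Probe sets of the same gene agreed well for 1 carrier and poorly for others. Both Slc46a1 probe sets moved together over the arrays (Pearson r of 0.99 over 6 arrays, given as a description), 0.85 apart in mean level. The tested probe sets of Slc19a1 were less alike (r of 0.64) but had the same sign within each of the 3 pairs. For Slc23a2 the dim probe set ran against the bright one (r of -0.57), for Slc19a2 the tested pair had r of -0.27, and for Slc5a3 the other 2 had r of 0.12 and -0.12 with the brightest. At 1440227_at Slc5a3 was at 10.66, 9.60 and 9.97 in RAG-/- arrays and 10.68, 10.86 and 9.77 in WT arrays, and at 1422170_at it was at 8.14, 6.05 and 7.55 in RAG-/- arrays and 8.05, 6.78 and 7.12 in WT arrays. RAG-/- replicate 2 was thus the lowest array at both. At the brightest probe set it was at 13.39, beside 13.38 in RAG-/- replicate 1, and it was the lowest as deposited (9507). Within pair 2 the difference was -0.45 there, against -1.26 at 1440227_at and -0.74 at 1422170_at. In the GRCm38.p6 gene table Slc5a3 overlaps Mrps6, Slc46a1 overlaps Sarm1, Slc5a6 overlaps Atraid and Slc23a1 overlaps Paip2. Where the probes lie is not known here, so signal from those genes cannot be told apart, and probe sets whose names end in _s_at can bind more than 1 transcript by design.

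**Figure D5:**
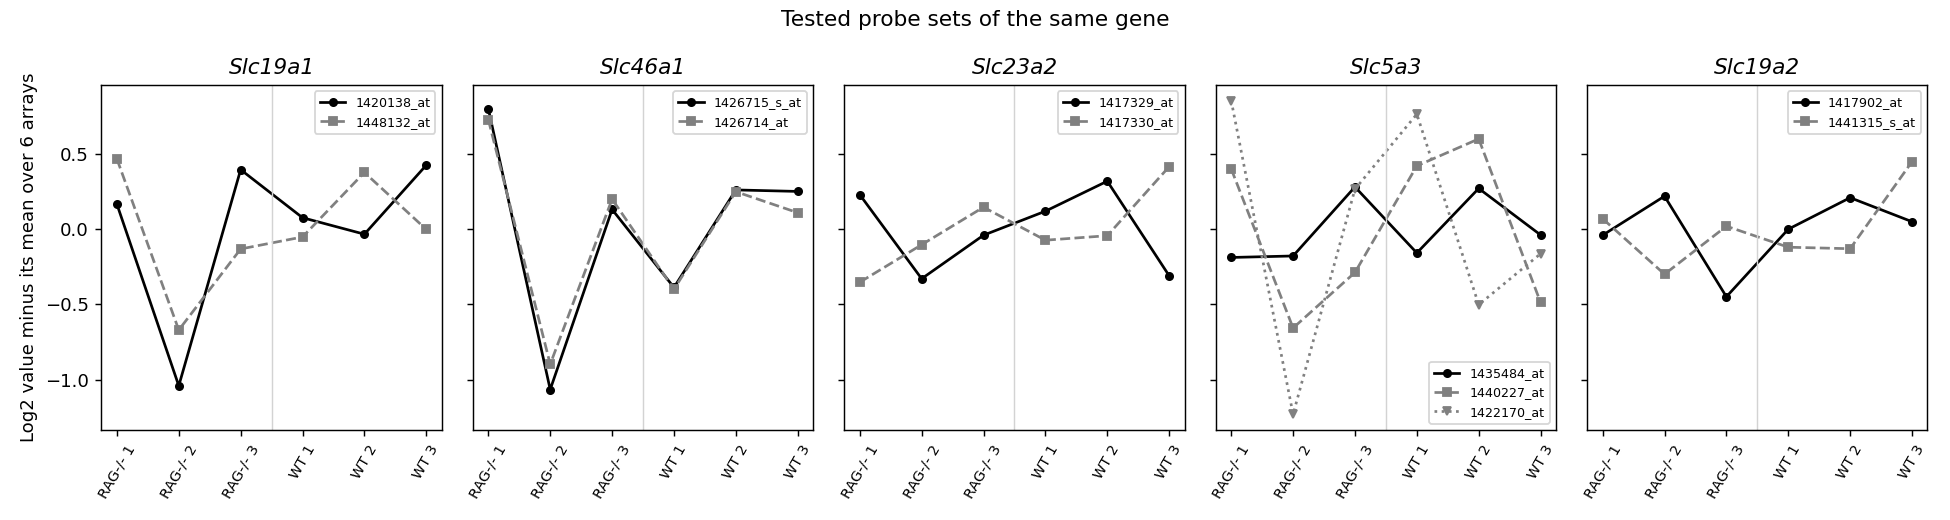
Log2 value minus its mean over the 6 arrays for each tested probe set of the 5 genes with more than 1, RAG-/- arrays left of WT arrays and the brightest probe set in black. The 2 lines of Slc46a1 run together, while those of Slc23a2, Slc5a3 and Slc19a2 cross.

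Genes that handle vitamins, inositol or osmolytes did not separate the genotypes past the threshold either, with 0 called in each of 5 lists. Of 25 folate and one-carbon genes 19 were tested, 6 lower and 13 higher in RAG-/-, with a median of 0.06 against -0.01 over all probe sets tested. By title 12 of the 19 were lower, with a median of -0.06. Mthfd2, a mitochondrial enzyme that oxidises methylenetetrahydrofolate, was at 8.48, 8.83 and 8.36 in RAG-/- arrays and 7.50, 7.83 and 7.77 in WT arrays, groups that did not overlap, with a difference of 0.86 (SE 0.29, unadjusted p = 0.0182, limma adjusted p = 1). By title that difference was 0.20. Tyms, thymidylate synthase, was under the filter at 4.75, 4.34 and 4.38 in RAG-/- arrays and 5.64, 5.88 and 6.50 in WT arrays. By title the Tyms groups overlapped, with a difference of -0.93. With no filter, groups by description were apart for 1344 probe sets higher and 1119 lower in RAG-/-, of 45037. The brightest of the list were Mthfd1, a cytosolic enzyme that interconverts folate forms, and Ggh, which trims the glutamate tail of folates, at means of 12.90 and 12.02 in RAG-/- and 12.94 and 12.42 in WT.

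Among 9 genes of vitamin C handling 6 were tested, 3 lower and 3 higher, with a median of -0.04, and by title 2 of the 6 were lower, with a median of 0.20. Gulo, the last enzyme of vitamin C synthesis in mouse liver, was under the filter. It was at 5.86, 6.32 and 5.35 in RAG-/- arrays and 5.01, 4.21 and 4.16 in WT arrays. By title the Gulo groups overlapped, with a difference of 0.82. The brightest were Cyb561 and Slc2a1, a glucose transporter that also takes up dehydroascorbate, at means of 12.83 and 12.56 in RAG-/- and 13.01 and 12.75 in WT. Of 9 genes of inositol handling and osmolytes 5 were tested and all 5 were lower on average, with a median of -0.15, while by title 2 of the 5 were lower, with a median of 0.11. The brightest were Cdipt, which makes phosphatidylinositol, and Impa1, which frees inositol from its phosphate, with differences of -0.09 and -0.15. Of 10 genes for thiamine, biotin and pantothenate 8 were tested, 3 lower and 5 higher, with a median of 0.02 (by title 5 lower, median -0.11) and with Pank3 and Pank1, kinases of pantothenate, the brightest. Of 6 genes of vitamin endocytosis 4 were tested, 3 lower and 1 higher, with a median of -0.15 (by title 3 lower, median -0.14). Tcn2, which carries vitamin B12, was the brightest at means of 13.94 in RAG-/- and 14.04 in WT, followed by Cd320, the receptor that takes it up, at 9.15 in RAG-/- and 9.47 in WT. Lrp2, an endocytic receptor under the filter, was at 5.56, 6.01 and 5.88 in RAG-/- arrays and 6.11, 6.06 and 6.54 in WT arrays. By title the Lrp2 groups overlapped, with a difference of -0.05.

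The genes whose pattern over the 6 arrays was most like that of Folr1 were Ctsa, a lysosomal carboxypeptidase, Metrnl, a secreted protein, and Prdx4, a peroxiredoxin of the secretory pathway, with Pearson r of 0.9992, 0.9974 and 0.9955. Ctsa was at 12.26, 11.46 and 11.62 in RAG-/- arrays and 11.95, 12.11 and 11.51 in WT arrays. For Folr2 they were Bnip2, Pkd1 and Tasor, with r of 0.9968, 0.9892 and 0.9873, and none of these is on the macrophage list. With 6 arrays that resemble each other within pairs and 13536 genes compared, 82 genes had r above 0.95 with Folr1 and 38 with Folr2, so that such values describe these arrays only.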

How the data were processed

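Total RNA of 6 choroid plexus preparations had been measured on 1 array each. The deposited table holds 1 linear intensity per probe set and array. Which software and normalization the authors used is not stated in the labels or the file header. Without its lowest and highest 2% of values each array had a mean intensity of 500, which shows a scaling of every array to 1 target. No detection calls were used here, and the number of arrays limits the precision.

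The 64 control probe sets were left out, log2(intensity + 16) was quantile normalized, and probe sets in the lowest 40% of mean value were left out, leaving 27022 of 45037. Fold changes of dim probe sets are understated by the added 16. Symbols came from the platform annotation (34945 probe sets with 1 symbol, 932 with several, 9160 unnamed here), updated by gene number through the RefSeq table of GRCm38.p6 (34741 matched), and the brightest probe set stood for a gene. RAG-/- minus WT was tested with limma 3.58.1 (eBayes with trend, two-sided, Benjamini-Hochberg over all probe sets tested) in R 4.3.3, and the fit was tested on simulated data. Exact permutation tests of 3 against 3 arrays cannot go below p = 0.1.

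Every member is named. Of each pathway list, the members past the threshold are named or, where there is none, at most 2 with the widest gap between groups that do not overlap and the brightest 2. The 3 genes most like Folr1 and Folr2 are named by Pearson r. The members and lists were chosen with earlier results of these data known. A code shared in the titles gives 3 pairs, in which paired arrays deviated together from their groups (correlations of 0.287, 0.394 and 0.577, between -0.418 and 0.009 across pairs). Deviations within a group cancel out, so low correlations across pairs follow in part from the higher ones within pairs. The codes were taken to pair the samples, and the pair was tried as a block. Other alternatives were genotype by title, 2 other scalings, pseudocount, filter, array weights and leaving out arrays or pair 1.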

Additional observations from a re-analysis of the deposited data

How the results depend on the processing

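Member probe sets past the threshold numbered 0 in every alternative run, the pair as a replicate block included (0 of 15, and 0 of 27022 probe sets overall), and the lowest adjusted p of a carrier's brightest probe set was 0.926. Over all probe sets the count of 0 became 1 by title with the replicate block, and stayed between 0 and 4 without single arrays, with the 4 reached without RAG-/- replicate 2. The replicate block changed no other call. Directions were less stable than calls. With array weights the difference was 0.15 for Folr1, 0.50 for Slc46a1, 0.001 for Slc23a2 and 0.21 for Slc5a6. Without single arrays it ran from -0.50 to 0.11 for Folr1, -0.59 to 0.13 for Slc19a1, -0.51 to 0.43 for Slc46a1, -0.27 to 0.051 for Slc23a2, -0.20 to 0.068 for Slc5a3, -0.33 to 0.007 for Slc19a2, -0.12 to 0.067 for Slc19a3 and -0.59 to 0.46 for Slc5a6; the cause was not tested. The highest of these values came without RAG-/- replicate 2 for Folr1, Slc19a1, Slc46a1, Slc23a2 and Slc5a6. Folr2 and Slc23a1 kept their sign in all 17 alternatives run, from -0.55 to -0.05 and from -0.88 to -0.12. The replicate block and the filters leave a difference unchanged, so these could not have turned a sign. The -0.12 of Slc23a1 came without RAG-/- replicate 3. Dim signal limited Slc23a1 and 3 other probe sets, which were not tested. With 3 arrays a group the intervals above are wide. Each is for 1 probe set and is not adjusted for the 27022 tested. They therefore do not mark which differences could have passed the threshold.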
